A study of Salmo salar with 16 samples.

Results

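Genes depleted in the liver of Atlantic salmon were examined, meaning genes expressed at a lower level in the liver than in each of 3 other tissues, the mid-brain, the pituitary gland and the ovary. They were found in the raw count table by comparing the 4 liver libraries with the 4 libraries of each other tissue, after library sizes had been corrected for composition. A gene qualified when edgeR's quasi-likelihood test gave a false discovery rate (FDR, Benjamini-Hochberg adjusted p) no higher than 0.001, with a log2 fold change (liver minus the other tissue) of -2 or below in all 3 comparisons. This was met by 1709 of the 37043 genes tested (4.61%), out of 81574 genes in the annotation of the ICSASG_v2 genome assembly. The tissues came from 4 sexually immature female fish of a Tasmanian selective breeding program, all 3 years old and with no treatment named. Poly(A) RNA was sequenced in 16 libraries, 4 biological replicates per tissue, and all 4 tissues of the study were compared here. Since the 4 fish supplied every tissue, libraries of different tissues share animals, while the test treats the libraries as independent.

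The liver libraries held 20638203 to 23169283 counts and the 12 others 23239082 to 51858156. The composition correction (TMM) multiplied the liver totals by 0.494 to 0.537, the brain totals by 1.25 to 1.46, the pituitary gland totals by 0.938 to 1.06 and the ovary totals by 1.41 to 1.48, and levels below are CPM values, counts scaled to the corrected total of each library. With this correction the median log2 fold change of all tested genes was -0.22 against the brain, -0.17 against the pituitary gland and -0.38 against the ovary. Genes higher in the liver than in each other tissue numbered 2149 (5.8%). Genes lower in the liver made up 44.3% of those called lower or higher in the liver against all 3 tissues, and 77.8% when plain library totals were used, which moved the median by -1.397 (brain), -0.95 (pituitary gland) and -1.48 (ovary) on the log2 scale. The liver label was borne out by its defining transcripts, since 58 genes of liver plasma proteins summed to 317315 to 354596 CPM in the liver libraries and to at most 648 CPM in any other library. Brain replicates 3 and 4 stood apart from brain replicates 1 and 2, with 19.7% and 15.5% of their counts on ependymin genes, against 0.201% and 0.0428%, and without replicates 3 and 4 the number of depleted genes was 1812. In whole tissue, fewer cells of a type and less RNA per cell cannot be told apart.

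Hepatocytes make up most of the liver and secrete plasma proteins, make glucose, store glycogen and handle nitrogen for the rest of the body. They carry no motile cilium and do not fire action potentials, and they rely on their own isoforms of several glycolytic enzymes. The brain, the pituitary gland and the ovary, in contrast, hold neurons, endocrine cells, ependymal or other ciliated cells, follicle cells and oocytes.

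The liver was lower than the brain at 8187 genes (22.1% of those tested), lower than the pituitary gland at 6412 (17.3%) and lower than the ovary at 8268 (22.3%). Most of these calls were shared with only part of the tissues, as 9148 genes were lower than exactly 1 tissue, 4296 lower than exactly 2 and 1709 lower than all 3. Of the 4296, the largest group, 3007 genes, was lower than the brain and the pituitary gland but not called lower than the ovary. In the contrast of the liver with the mean of the other 3 tissues 6120 genes (16.5%) were lower, and these included all 1709. All 4 liver libraries lay below all 12 others at 1705 of the 1709 genes, where 13.3% of all tested genes showed the same separation. The rule that selected the 1709 genes used the same libraries and favours such separation, so it gives no separate support.

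Most depleted genes had a low level in the liver. The median of their mean levels was 0.306 CPM in the liver, against 8.85 in the brain, 7.35 in the pituitary gland and 6.25 in the ovary. Under 1 CPM in the liver were 1313 of them (76.8%). Over the 4 liver libraries together, 1359 had more than 3 counts, 277 had 1 to 3 and 73 had none. As a group they took 0.0824% ± 0.00293 of all counts in the liver, against 5.56% ± 1.33 in the brain, 3.33% ± 0.0813 in the pituitary gland and 4.19% ± 0.0504 in the ovary (SD, n = 4 each). The smallest of the 3 differences had a median log2 fold change of -3.33 (-3.24 with the 73 undetected genes set at a floor of 3 counts over the liver libraries), and it was -4 or less at 548 genes. This smallest difference was with the ovary at 738 genes, with the pituitary gland at 540 and with the brain at 431. Among the other 3 tissues, the highest level was in the brain at 680 depleted genes (39.8%, against 34.3% of all tested genes), in the ovary at 558 (32.7%, against 41.6%) and in the pituitary gland at 471 (27.6%, against 24.1%).

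**Figure D1:**
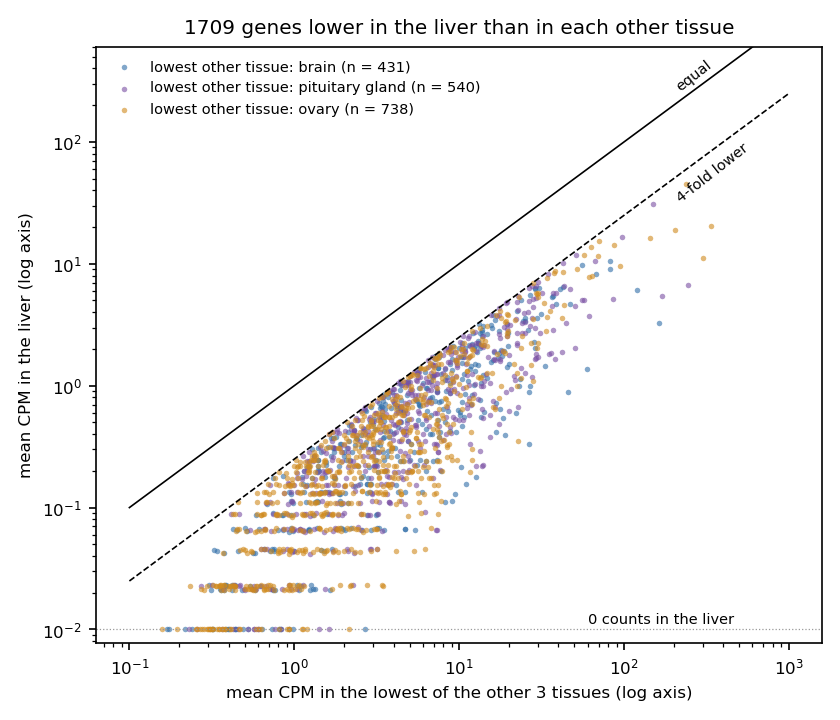
Mean CPM in the liver (vertical log axis) and in the lowest of the other 3 tissues (horizontal log axis) for the 1709 depleted genes, coloured by which other tissue was lowest; the solid line marks equal levels, the dashed line a 4-fold lower level in the liver, and genes with no liver count are drawn on the dotted line. The cloud sits on or below the dashed line over the whole range of levels, with 1313 genes under 1 CPM in the liver.

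The rule placed a sharp limit on a continuous range. Just inside it were mucolipin-1-like LOC106607019, at 1.71 CPM in the liver against 6.86 CPM in the lowest other tissue, and the assembly factor LOC106582647 of the ubiquinol-cytochrome-c reductase complex, at 4.35 against 17.5 CPM. Just outside it were the dynein light intermediate chain LOC106606101, at 0.545 against 2.20 CPM, and the mannosidase-like LOC106563127, at 3.25 against 12.995 CPM. A further 1726 genes had the fold change in all 3 comparisons without the FDR.

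The 10 depleted genes with the highest level in their lowest other tissue were kcrb, LOC106587214 and LOC106577739 of sugar and energy metabolism, the cytoskeletal genes vim, LOC106588646 and LOC100136483, the glutamine and serine synthesis genes glna and LOC106586211, calm2 and c209e. Creatine kinase B-type, kcrb (chromosome 15, 21653803 to 21660357), which moves phosphate between creatine and ATP, had 26.4, 17.5, 20.04 and 18 CPM in the liver, against 4049, 2929, 2046 and 1657 in the brain, 560.2, 674, 566 and 503 in the pituitary gland and 317, 381, 313 and 326 in the ovary. The liver libraries were far under the others, and the brain libraries were the highest. The smallest difference, with the ovary, had a log2 fold change of -4.03 (SE 0.27, FDR 1.3e-09). The pyruvate kinase PKM-like gene LOC106587214 (chromosome 26, 17733128 to 17753326), which codes for the last enzyme of glycolysis, had 45.9, 46.2, 49.2 and 39.9 CPM in the liver, against 975, 899, 697 and 667 in the brain, 506, 579.6, 522 and 531 in the pituitary gland and 249.9, 230.5, 235 and 231 in the ovary. It kept the highest liver level among the 10 most abundant depleted genes, and its log2 fold change against the ovary was -2.38 (SE 0.15, FDR 4.7e-10). A second muscle-type pyruvate kinase, kpyk (chromosome 11, 17427201 to 17449728), had 5.15, 5.005, 3.81 and 3.93 CPM in the liver, against 343, 351, 283 and 200.3 in the brain, 47.9, 53.6, 52.7 and 46 in the pituitary gland and 274, 236, 222 and 229 in the ovary. In that gene the pituitary gland was closest to the liver, at -3.48 (SE 0.19, FDR 2e-10).

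A glyceraldehyde-3-phosphate dehydrogenase gene, LOC106577739 (chromosome 2, 14165095 to 14189790), which codes for the glycolytic enzyme often used as a housekeeping standard, had 17.6, 16.4, 16 and 15.4 CPM in the liver, against 937, 709, 498 and 451 in the brain, 208, 218, 204 and 188 in the pituitary gland and 138, 167, 133 and 133 in the ovary. The liver libraries did not overlap any other tissue, which the choice of named genes required. The smallest log2 fold change was -3.13 (SE 0.21, FDR 9.2e-10), against the ovary. The list of extrahepatic isoenzymes of sugar and energy metabolism held 50 tested genes, of which 7 (14%) were depleted and 5 higher in the liver than in each other tissue, and its median log2 fold change against the mean of the other tissues was -3.07, where the median of all tested genes was -0.45. Besides kcrb, LOC106587214 and kpyk these were a mitochondrial creatine kinase, a hexokinase and a pair of gamma-enolases. The mitochondrial creatine kinase LOC106561094 averaged 0.294 CPM in the liver, against 72.8 in the brain, 5.6 in the pituitary gland and 5.01 in the ovary. Most of its liver counts were in replicate 1, and the smallest log2 fold change was -4.10, or -5.40 without that library. Hexokinase-2-like LOC106585103, which phosphorylates glucose on entry into the cell, averaged 2.72 CPM in the liver, against 19.7 in the brain, 27.1 in the pituitary gland and 50.1 in the ovary, with -2.85 (SE 0.15, FDR 1.7e-10) against the brain. Gamma-enolase-like LOC106588424, of the enolase form known from neurons, averaged 0.573 CPM in the liver, against 46.7 in the brain, 11.5 in the pituitary gland and 4.55 in the ovary. The other gamma-enolase, enog, passed narrowly (log2 fold change -2.77, SE 0.63, FDR 0.00087, against the ovary) and was called in only 5 of the 16 fits that each left out a library, being lost without any of the liver libraries, brain replicate 1, pituitary gland replicates 2, 3 or 4, or ovary replicates 1, 3 or 4, with log2 fold changes of -3.12 to -2.57. Its call was also lost with DESeq2 or upper-quartile size factors and with the replicate number as a block (-2.85).

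Enzymes with the same name did not move as a block. Among genes named pyruvate kinase PKM-like, LOC106605740 and LOC106573729 were higher in the liver than in each other tissue, with means of 86.7 and 168 CPM in the liver and less than 1 CPM elsewhere. In the list of hepatic isoenzymes, which holds glucose-6-phosphatase, fructose-1,6-bisphosphatase, glucokinase and liver glycogen phosphorylase, 0 of 22 tested genes were depleted by edgeR and 0 by DESeq2, 2 were lower than each tissue at an unadjusted p under 0.05, and 8 were higher in the liver than in each other tissue. At that unadjusted p, 5883 of all 37043 tested genes were lower than each tissue. Depleted genes of oxidative phosphorylation subunits LOC106571296, LOC106611680 and LOC106605789 had same-named genes called against no tissue, namely LOC106610772, LOC106602580 and LOC106588156. Oxidative phosphorylation subunits, which every respiring tissue needs, had 4 depleted genes of 115 (3.48%) and 9 that were higher. The depleted ones were cytochrome c oxidase subunits 6A1 (LOC106585487, 14.1 CPM in the liver, against 103 in the brain, 106 in the pituitary gland and 86.6 in the ovary) and 7A2 (LOC106571296, 0.655 CPM in the liver, against 3.32 in the brain, 4.63 in the pituitary gland and 6.04 in the ovary) and complex I subunits of the iron-sulfur and flavoprotein type (LOC106611680, 2.24 CPM in the liver, against 47 in the brain, 60.7 in the pituitary gland and 27.1 in the ovary; LOC106605789, 0.087 CPM in the liver, against 0.961 in the brain, 17.8 in the pituitary gland and 8.02 in the ovary).

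**Figure D2:**
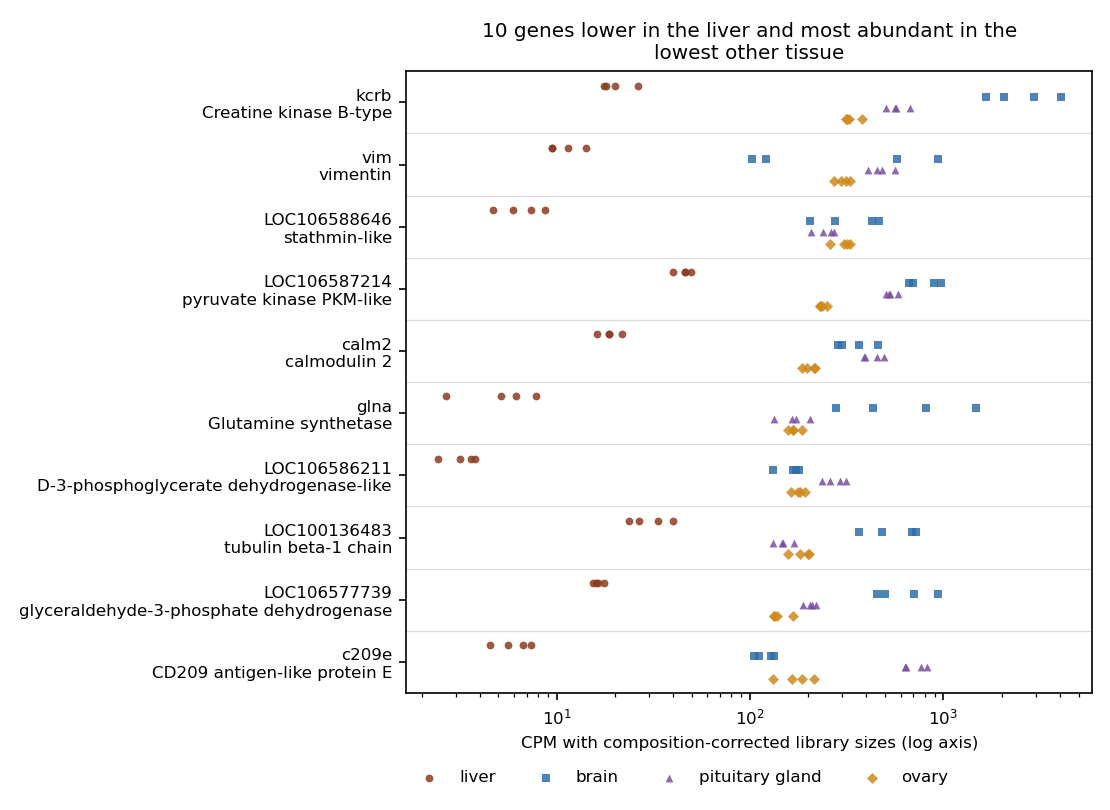
CPM (log axis) in each of the 16 libraries for the 10 depleted genes with the highest level in their lowest other tissue, each point a library and each colour a tissue, with the liver drawn uppermost in each row. The liver points lie left of all other points in every row, which the choice of these genes required. The gene kcrb is at 17.5 to 26.4 CPM in the liver and 313 to 4049 CPM elsewhere.

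Some genes for making serine and glutamine were depleted as well, though not the glutamine synthetase gene most abundant in the liver. D-3-phosphoglycerate dehydrogenase-like LOC106586211 (chromosome 25, 13956792 to 13962958), whose product opens the pathway from glycolysis to serine, had 3.77, 3.62, 3.17 and 2.42 CPM in the liver, against 173, 132, 179 and 168 in the brain, 315, 293, 234 and 258 in the pituitary gland and 163, 191, 180.5 and 176 in the ovary. The smallest difference, with the brain, was -5.65 (SE 0.18, FDR 1.5e-12). The last enzyme of the same pathway is phosphoserine phosphatase, and both of its genes were depleted: LOC106612829 averaged 1.61 CPM in the liver, against 35.9 in the brain, 39.2 in the pituitary gland and 9.38 in the ovary (log2 fold change -2.54, SE 0.21, FDR 1.2e-08), and serb averaged 3.32 CPM in the liver, against 19.9 in the brain, 27.9 in the pituitary gland and 19 in the ovary (log2 fold change -2.52, SE 0.30, FDR 1.4e-06). The middle enzyme, phosphoserine aminotransferase (psat1), averaged 19 CPM in the liver, against 82.9 in the brain, 67.1 in the pituitary gland and 67.9 in the ovary and was called lower than 1 tissue only.

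Glutamine synthetase joins ammonia to glutamate. Its gene glna (chromosome 3, 26206489 to 26209344) had 7.81, 5.18, 6.17 and 2.67 CPM in the liver, against 1482, 817, 431 and 277 in the brain, 165, 205, 134 and 173 in the pituitary gland and 157, 186, 168 and 168 in the ovary. All liver libraries were under 8 CPM, while the brain libraries differed widely among themselves, and the smallest log2 fold change, against the pituitary gland, was -4.96 (SE 0.47, FDR 1.6e-07). A second glutamine synthetase gene, LOC106560331, averaged 2.96 CPM in the liver, against 50.6 in the brain, 28.9 in the pituitary gland and 164 in the ovary, with -3.28 (SE 0.60, FDR 0.00016) against the pituitary gland and a smallest log2 fold change of -2.19 without brain replicates 3 and 4. Of the other 3 tested genes of this name, LOC106569199 was higher in the liver than in 2 tissues and averaged 791 CPM in the liver, against 362 in the brain, 64.2 in the pituitary gland and 19.7 in the ovary, LOC106584177 averaged 110.3 CPM in the liver, against 328 in the brain, 42.3 in the pituitary gland and 189 in the ovary and was called against none, and LOC106565542 was lower than 2 tissues. On the list of amino acid and polyamine synthesis outside liver, 5 of 13 tested genes (38.5%) were depleted, those above. None was higher in the liver than in each other tissue. The list was drawn up for synthesis outside the liver, so its share does not describe amino acid synthesis at large.

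Parts of the cytoskeleton stood beside the enzymes among the abundant depleted genes. Vimentin, vim (chromosome 19, 15338010 to 15346063), the intermediate filament protein of mesenchymal and glial cells, had 11.5, 14.2, 9.43 and 9.44 CPM in the liver, against 103, 122, 938 and 578 in the brain, 479, 454, 560.4 and 408 in the pituitary gland and 328, 312, 272 and 295 in the ovary. The brain libraries fell into a low and a high pair, replicates 3 and 4 being the high ones that also carried the ependymin counts. Even the low pair was above every liver library, as the choice of named genes required. The log2 fold change against the ovary was -4.76 (SE 0.59, FDR 1.7e-06), and without brain replicates 3 and 4 the smallest was -3.50. Stathmin-like LOC106588646 (chromosome 27, 18636827 to 18643387), which binds free tubulin, had 8.73, 5.95, 7.35 and 4.68 CPM in the liver, against 463, 429, 276 and 204 in the brain, 264, 272, 239 and 206 in the pituitary gland and 329.6, 307, 258 and 316 in the ovary. Its levels in the other 3 tissues overlapped each other, and the smallest difference was -5.20 (SE 0.28, FDR 2.4e-10), with the pituitary gland. Another stathmin-like gene, LOC106605008, averaged 1.69 CPM in the liver, against 114 in the brain, 29.1 in the pituitary gland and 29.8 in the ovary (log2 fold change -4.10, SE 0.18, FDR 3e-11), and marcs, coding for a membrane protein that binds actin and calmodulin, averaged 9.66 CPM in the liver, against 139 in the brain, 201 in the pituitary gland and 95.1 in the ovary (log2 fold change -3.30, SE 0.30, FDR 5.2e-08).

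Tubulins, the subunits of microtubules, had 6 depleted genes of 46 tested (13%) and none that was higher in the liver than in each other tissue. The tubulin beta-1 chain gene LOC100136483 (chromosome 24, 25866847 to 25869568) had 39.8, 26.7, 33.6 and 23.6 CPM in the liver, against 684, 723, 481 and 366 in the brain, 146, 169, 149 and 132 in the pituitary gland and 156, 202, 199 and 181 in the ovary. Its log2 fold change of -2.27 (SE 0.22, FDR 2e-07) against the pituitary gland was the nearest to 0 of the 6. The tubulin beta-2A-like gene LOC106599713 averaged 1.89 CPM in the liver, against 296 in the brain, 42 in the pituitary gland and 65.5 in the ovary, and the tubulin alpha gene LOC106567090 1.17 CPM in the liver, against 182 in the brain, 63.8 in the pituitary gland and 13 in the ovary. The beta-3 genes LOC106562270 and tbb3 and the beta-4B gene tubb4b, with smallest log2 fold changes of -3.50, -3.02 and -2.89, completed the group. The brain had the highest mean of all tissues at 5 of these 6 genes and the ovary at tubb4b. A tubulin alpha gene of the same name as LOC106567090, LOC106565438, was called against no tissue.

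Motor proteins that run on these filaments were depleted in part. Kinesins had 14 depleted genes of 103 (13.6%), among them genes named KIF1A, KIF2A and KIF3B and kinesin light chains, which serve transport along axons and cilia or microtubule depolymerization. KIF2A LOC106568303 (chromosome 13, 91750951 to 91758339) had 0.0919, 0.0863, 0.0907 and 0 CPM in the liver, against 24.9, 25.6, 17.9 and 21.1 in the brain, 8.3, 11, 10.01 and 10.7 in the pituitary gland and 2.29, 2.88, 2.26 and 2.29 in the ovary. With 3 counts over the liver libraries, it was lower in the liver than in the ovary by 36.9-fold (95% counting interval 12.5 to 179). Nonmuscle and unconventional myosins had 15 of 85 (17.6%) and formins 6 of 32, 5 of which were formin-2-like; both lists, like those of the axoneme, Rab proteins, ion pumps, HSP70 chaperones, stathmins, cAMP enzymes and forkhead proteins below, were added after the values had been seen, so their shares carry no weight of their own. A myosin-Va-like gene, LOC106562436, whose product carries vesicles along actin, was lower in the liver than in the ovary by 31.4-fold (95% counting interval 8.59 to 261), on 2 liver counts. Septins, which form filaments under the membrane, had 3 of 34, led by septin-5 LOC106585048 with a mean of 1.2 CPM in the liver, against 82.7 in the brain, 21.5 in the pituitary gland and 35.6 in the ovary.

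The list of motile cilia had more depleted genes than any other list. It was added after the values had been seen, so this rank carries no weight of its own. Of 76 tested genes named for the axoneme or for motile cilia, 29 (38.2%) were depleted and 1 was higher in the liver than in each other tissue, with a median log2 fold change of -3.41 against the mean of the other tissues. They covered outer and inner dynein arms (dnah1, dnah2, dnah7, dnah9, dnali1 and dynein heavy chain 5-like genes), radial spokes (rsph1, rsph3, rsph9), the cilia and flagella associated proteins (cfap52, cfap53, cfap58, cfap61 and others), tektin-1 and the assembly factor dnaaf3. The gene dnah9 (chromosome 28, 11821103 to 11943482), coding for an outer arm motor, had 0.0919, 0.0863, 0.181 and 0.0836 CPM in the liver, against 11.7, 13.2, 4.9 and 2.99 in the brain, 10.1, 9.94, 12 and 8.6 in the pituitary gland and 14, 21.5, 21.8 and 19.3 in the ovary. Its 4 liver libraries held 5 counts together, and the smallest difference was -6.17 (SE 0.56, FDR 7.7e-08), with the brain. The stabilizer of axonemal microtubules 2-like gene LOC106587795 (chromosome 26, 37301443 to 37309640) had no count in the liver, against 3.34, 5.63, 3.49 and 2.56 CPM in the brain, 1.14, 1.2, 0.84 and 1.25 in the pituitary gland and 1.02, 0.832, 0.824 and 1.03 in the ovary. Set against the floor of 3 counts over the liver libraries it was at least 14-fold lower in the liver than in the ovary.

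Further genes known from this machinery showed the same pattern. The gene efcab1 (chromosome 27, 31055750 to 31057668), a calcium-binding protein of outer dynein arms, had no liver count, against 3.76, 4.09, 3.46 and 1.71 CPM in the brain, 2.36, 2.06, 2.22 and 1.4 in the pituitary gland and 0.763, 0.927, 0.93 and 1.08 in the ovary, and was at least 14-fold lower than in the ovary. The gene cfap53 averaged 0.0668 CPM in the liver, against 4.67 in the brain, 4.7 in the pituitary gland and 7.56 in the ovary, and its 3 liver counts, at 0.184, 0, 0 and 0.0836 CPM in the 4 libraries, made it lower than in the brain by 72.9-fold (95% counting interval 24.9 to 354). Tektin-1-like LOC106580793, a protein of the microtubule doublets, averaged 0.133 CPM in the liver, against 5.93 in the brain, 15.4 in the pituitary gland and 10.04 in the ovary (log2 fold change -5.45, SE 0.39, FDR 5.2e-09, against the brain). Forkhead box J1-B-like LOC106589554, whose mammalian counterpart switches on genes of motile cilia, averaged 0.374 CPM in the liver, against 10.2 in the brain, 24 in the pituitary gland and 2.86 in the ovary (log2 fold change -2.92, SE 0.32, FDR 4.8e-07, against the ovary). Intraflagellar transport and other ciliary proteins, which also serve immotile cilia, had 8 depleted genes of 71 (11.3%), led by intraflagellar transport protein 56-like LOC106607033 at 0.245 CPM in the liver, against 5.05 in the brain, 19.7 in the pituitary gland and 8.65 in the ovary. The tissue with the highest mean differed from gene to gene, the pituitary gland for tektin-1, the forkhead gene and LOC106607033, the ovary for dnah9 and cfap53 and the brain for LOC106587795 and efcab1.

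The 10 genes with the most negative fitted differences had no liver count, so that only a lower bound of their fold can be given. CXXC-type zinc finger protein 4, LOC106610359 (chromosome 8, 19611259 to 19645329), known as an inhibitor of Wnt signalling, had 0 counts in the 4 liver libraries, against 4.46, 1.3, 1.65 and 3.29 CPM in the brain, 11.1, 10.8, 10.01 and 12.6 in the pituitary gland and 6.49, 5.89, 5.87 and 5.7 in the ovary. It was at least 40.6-fold lower in the liver than in the brain, the lowest of the others. The probable G protein-coupled receptor 61, LOC106565668 (chromosome 12, 59405869 to 59412339), had 0 in the liver, against 2.63, 2.19, 1.6 and 5.03 CPM in the brain, 1.29, 2.27, 1.68 and 1.25 in the pituitary gland and 3.97, 2.52, 3.27 and 2.11 in the ovary. The libraries of these 3 tissues overlapped, and the liver was at least 24.6-fold lower than the pituitary gland.

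A sphingomyelin synthase 2-like gene, LOC106602292 (chromosome 4, 6731402 to 6749336), coding for an enzyme that makes a membrane lipid, had 0 in the liver, against 1.39, 2.67, 1.21 and 1.46 CPM in the brain, 1.36, 1.11, 1.61 and 1.58 in the pituitary gland and 12.6, 12.2, 11.7 and 12.7 in the ovary. The ovary stood above the other tissues, and the liver was at least 21.5-fold lower than the pituitary gland. Others of these 10 were glypican-5-like LOC106613866 (at least 32.4-fold lower than in the ovary, with 61 bases of exon overlapping a gene on the opposite strand), PR domain zinc finger protein 8-like LOC106576848 (at least 18.1-fold), als2cr11 (at least 17.1-fold) and the uncharacterized LOC106573744 (at least 15-fold, against the brain). The strand setting used in counting is not given in the sources used here.

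Signals between neighbouring cells were the next group. Ephrins and their Eph receptors, which guide cells by contact, had 7 depleted genes of 61 (11.5%). The ligand ephrin-A5-like LOC106563326 (chromosome 11, 63941884 to 63996002) had 0 counts in the liver, against 2.16, 1.78, 3.96 and 3.72 CPM in the brain, 3.21, 3.09, 2.22 and 3.49 in the pituitary gland and 0.763, 1.33, 1.04 and 1.35 in the ovary, and was at least 17-fold lower than in the ovary. The receptor gene ephrin type-A receptor 4-like, LOC106600145 (chromosome 3, 36662412 to 36695016), had 0.184, 0.345, 0.272 and 0.418 CPM in the liver, against 7.98, 3.93, 17.3 and 19.9 in the brain, 20.3, 28.5, 26.5 and 22.6 in the pituitary gland and 14.7, 13.6, 5.02 and 14.3 in the ovary. No liver library overlapped another tissue at the ligand or at the receptor, which the choice of named genes required. The receptor's smallest difference was -5.26 (SE 0.58, FDR 6.8e-07), with the ovary, or -4.40 without brain replicates 3 and 4. Semaphorins, plexins and neuropilins, a second guidance system, had 12 of 114 (10.5%), and 5 of the list were higher in the liver.

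Cadherins and protocadherins, which hold like cells together, had the largest number of depleted genes among the adhesion lists, 24 of 174 (13.8%), with 1 gene higher in the liver. Protocadherin alpha-C2-like LOC106568102 averaged 0.175 CPM in the liver, against 16.7 in the brain, 6.9 in the pituitary gland and 17.5 in the ovary (log2 fold change -5.26, SE 0.48, FDR 1e-07, against the pituitary gland). Integrins, the receptors for matrix, had 5 of 66 (7.58%), with itgbl1, an integrin beta-like gene, at 0.376 CPM in the liver, against 43.9 in the brain, 17 in the pituitary gland and 7.52 in the ovary. Matrix proteins were near the background share, with 6 of 134 collagens (4.48%) and 1 of 48 laminins and other basement membrane proteins (2.08%). Collagen alpha-1(XI)-like LOC106607203 averaged 0.997 CPM in the liver, against 23.1 in the brain, 23.4 in the pituitary gland and 29.1 in the ovary, but its brain libraries had 4.35, 2.84, 43.1 and 42 CPM and without brain replicates 3 and 4 its smallest log2 fold change was -1.997 and no longer called, where it was -4.53 with them. Laminin beta-2-like LOC106572102 averaged 2.83 CPM in the liver, against 28.8 in the brain, 28.5 in the pituitary gland and 19.8 in the ovary. Same-named genes called against no tissue were LOC106568813 for the collagen and LOC106572101 for the laminin.

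The FGF, Notch, Wnt and TGF-beta lists of developmental signals and receptors had depleted shares of 2.36% to 8.33%, where the share of all tested genes was 4.61%. The Hedgehog list had 0 of 20. FGF ligands and receptors had 5 depleted genes of 60 (8.33%) and 4 higher ones. Fibroblast growth factor receptor 1-A-like LOC106579865 (chromosome 20, 23172279 to 23214830), a receptor tyrosine kinase, had 0.276, 0.949, 1.09 and 0.501 CPM in the liver, against 17.2, 9.61, 17 and 10.5 in the brain, 13.2, 11.4, 15.2 and 16.4 in the pituitary gland and 11.6, 10.9, 12.5 and 13.1 in the ovary. The libraries of the other 3 tissues overlapped, and the smallest difference was -4.09 (SE 0.32, FDR 1e-08), with the ovary. The Notch list, covering a pathway of contact-dependent cell fate, had 3 of 56 (5.36%), with the repressor gene LOC106571366 of the Hey family at 0.222 CPM in the liver, against 8.36 in the brain, 15.5 in the pituitary gland and 3.45 in the ovary, and the Wnt list 5 of 88 (5.68%). The TGF-beta and BMP list had 3 of 127 (2.36%) against 12 higher in the liver, and its activin receptor type-1B-like gene LOC106565530 averaged 0.728 CPM in the liver, against 7.57 in the brain, 11.4 in the pituitary gland and 13.4 in the ovary (log2 fold change -3.37, SE 0.20, FDR 4.3e-10, against the brain). Its bone morphogenetic protein 10-like gene LOC106563975 was called in only 8 of 27 alternative settings and growth/differentiation factor 10-like LOC106576847 in 21. On the Notch list, HES-1-like LOC106613170 was called in 12 of 27.

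SOX proteins, DNA-binding regulators of cell identity, had 5 depleted genes of 43 (11.6%). Sox-3-like LOC106604738 (chromosome 5, 33068928 to 33070755), of the group known from neural progenitors and gonads, had 0.184, 0.173, 0.272 and 0.251 CPM in the liver, against 26.5, 20.4, 13 and 15.8 in the brain, 12.9, 12.5, 15.6 and 9.37 in the pituitary gland and 22.3, 13, 20.8 and 18.7 in the ovary. The liver libraries held 10 counts together and the other tissues overlapped, with a smallest difference of -5.82 (SE 0.34, FDR 4.8e-10), against the pituitary gland. A second Sox-3 gene, LOC106611736, averaged 0.463 CPM in the liver, against 38.8 in the brain, 7.56 in the pituitary gland and 38.1 in the ovary, and Sox8 LOC100136470 averaged 0.24 CPM in the liver, against 38.1 in the brain, 23.4 in the pituitary gland and 3.26 in the ovary, with -3.73 against the ovary, or -4.45 without liver replicate 2. None of the tested PBX and MEIS (26 genes), sine oculis and EYA (21 genes) or Hox proteins (4 genes) was depleted by edgeR, with 7, 2 and 0 genes lower than each tissue at an unadjusted p under 0.05 and 1, 0 and 0 depleted by DESeq2. With 4.61% of all tested genes depleted, a count of 0 is unremarkable in lists this short. At an unadjusted p under 0.05, 5883 of all 37043 tested genes were lower than each tissue.

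Calcium signalling contributed abundant and rare genes. The calmodulin gene calm2 (chromosome 18, 9863791 to 9868369), coding for the main intracellular calcium sensor, had 18.7, 21.8, 16.2 and 18.5 CPM in the liver, against 364, 460.1, 299.5 and 286 in the brain, 493, 452, 394 and 388 in the pituitary gland and 215, 216, 197 and 186 in the ovary. The pituitary gland had the highest mean and the ovary was the closest to the liver, at -3.43 (SE 0.17, FDR 4.6e-11). A calcium/calmodulin-dependent protein kinase type IV-like gene, LOC106574056, averaged 0.154 CPM in the liver, against 15.4 in the brain, 17.2 in the pituitary gland and 7.03 in the ovary (log2 fold change -5.48, SE 0.53, FDR 1e-07, against the ovary), and adcy8, an adenylate cyclase stimulated by calcium and calmodulin, averaged 0.155 CPM in the liver, against 13.4 in the brain, 10.7 in the pituitary gland and 3.72 in the ovary (log2 fold change -4.55, SE 0.45, FDR 1.2e-07, against the ovary). Voltage-gated calcium and potassium channels had 13 depleted genes of 170 (7.65%). Of the 170 genes, 110 were lower than the brain, 84 lower than the pituitary gland and 25 lower than the ovary. Among all tested genes, 22.1%, 17.3% and 22.3% were lower than these tissues, in the same order. Against the ovary, the share of the channel list was thus below that of all tested genes. The potassium channel subfamily H gene LOC106585074 averaged 0.154 CPM in the liver, against 7.54 in the brain, 5.49 in the pituitary gland and 5.73 in the ovary (log2 fold change -5.12, SE 0.53, FDR 4.2e-07, against the pituitary gland).

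Vesicle traffic and secretion were represented by Rab GTPases, which mark membrane compartments, with 19 depleted genes of 125 (15.2%). Of this list, 2 genes were higher in the liver than in each other tissue. Rab-3A LOC106613631 (chromosome 10, 14864793 to 14888147), the form on synaptic and secretory vesicles, had 0.0919, 0.173, 0.0907 and 0 CPM in the liver, against 24.6, 36.7, 12.6 and 17 in the brain, 11.7, 10.7, 12.4 and 10.4 in the pituitary gland and 7.7, 7.11, 4.86 and 10.2 in the ovary. It was the most depleted of the Rab genes, with -6.34 (SE 0.52, FDR 1.2e-08) against the ovary, and genes of the Rab-3, Rab-15, Rab-26, Rab-27, Rab-33 and Rab-37 types were in the same group. So were genes named Rab-4B, Rab-9A, Rab-11B and Rab-36. V-type proton ATPase subunits, which acidify vesicles, had 7 of 48 (14.6%), including the catalytic subunit A LOC106590474 at 2.72 CPM in the liver, against 133 in the brain, 31 in the pituitary gland and 117 in the ovary and the accessory subunit S1-like LOC106566310 at 1.15 CPM in the liver, against 37.1 in the brain, 21.5 in the pituitary gland and 13.4 in the ovary. Same-named genes called against no tissue were LOC106563593 for subunit A and LOC106572621 for S1-like. Sodium/potassium ATPase subunits had 5 of 22 (22.7%), with the beta subunit gene LOC106575754 at 5.75 CPM in the liver, against 277 in the brain, 37.2 in the pituitary gland and 56.1 in the ovary.

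Granule proteins of endocrine cells had 2 depleted genes of 12 (16.7%, against 4.61% of all tested genes). Of the 12 genes, 10 were lower than the brain, 12 lower than the pituitary gland and 2 lower than the ovary. Among all tested genes, 22.1%, 17.3% and 22.3% were lower than these tissues, in the same order. The median log2 fold change of the list against the ovary was -0.23, near the -0.38 of all tested genes. Chromogranin A, chga (chromosome 15, 40943541 to 40960901), a core protein of secretory granules, had 0.919, 1.12, 0.816 and 0.334 CPM in the liver, against 67.8, 75, 66.2 and 109 in the brain, 328, 334, 291 and 335 in the pituitary gland and 17.8, 14.5, 16.1 and 21 in the ovary. The pituitary gland was the highest. The ovary was also above the liver in every library, as the choice of named genes required, with a log2 fold change of -4.44 (SE 0.27, FDR 3e-10). Neuroendocrine protein 7B2, 7b2 (chromosome 15, 19491900 to 19506729), a partner of prohormone convertase, had 3.49, 1.21, 2.18 and 1.59 CPM in the liver, against 139, 91.8, 72.4 and 147 in the brain, 1564, 1616, 1305 and 1369 in the pituitary gland and 18, 12.3, 15.2 and 13.4 in the ovary. The liver and the ovary did not overlap, which that choice also required, with -2.80 (SE 0.30, FDR 3.6e-07) between them. Neuronal markers had 4 of 67 (5.97%), although 45 were lower than the brain, and the tau-like gene LOC106600872, coding for a protein that binds microtubules, averaged 4.81 CPM in the liver, against 153 in the brain, 54.8 in the pituitary gland and 32.8 in the ovary. The summed level of the 67 neuronal markers was 317 to 361 CPM in the liver libraries, against 4331 to 12440 in the brain, 925 to 983 CPM in the pituitary gland and 630.2 to 662 in the ovary, and the part of such cells in the depleted genes was not tested.

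A few depleted genes belong to other functions. CD209 antigen-like protein E, c209e (chromosome 2, 10712964 to 10718237), a C-type lectin, had 7.35, 6.73, 4.53 and 5.6 CPM in the liver, against 128, 105, 133 and 111 in the brain, 826, 763, 638 and 634 in the pituitary gland and 164, 213, 132 and 185 in the ovary. The pituitary gland was the highest and the brain the closest to the liver, at -4.30 (SE 0.20, FDR 4.6e-11). The very low-density lipoprotein receptor gene LOC100136429 (chromosome 1, 117157127 to 117173220), which takes up yolk precursors in fish oocytes, had 7.44, 5.52, 5.9 and 4.09 CPM in the liver, against 75.6, 90.3, 72.3 and 77.9 in the brain, 37.7, 47.7, 32.5 and 36.2 in the pituitary gland and 644, 679, 579 and 586 in the ovary. The ovary stood well above the rest, and the smallest difference was -2.75 (SE 0.18, FDR 1.8e-09), with the pituitary gland. Another gene of this name, LOC106573960, was called against no tissue. HSP70 family chaperones had 5 of 21, among them heat shock 70 kDa protein 4 LOC100380717 at 3.72 CPM in the liver, against 72.2 in the brain, 60.9 in the pituitary gland and 150.2 in the ovary and its like-named partner LOC106604228 at 1.81 CPM in the liver, against 35.6 in the brain, 29.2 in the pituitary gland and 103 in the ovary. The heat shock 70 kDa protein-like gene LOC106600736 of this list was called in only 9 of 27 alternative settings.

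Several lists of general cell functions had no depleted gene. The share of all tested genes was 4.61%, so a count of 0 is unremarkable for the shorter lists given here. At an unadjusted p under 0.05, 5883 of the 37043 tested genes were lower in the liver than in each other tissue. Cytosolic ribosomal proteins had 0 of 181 tested genes depleted by edgeR and 0 by DESeq2, 0 at an unadjusted p under 0.05, and a median log2 fold change of 2.35 against the mean of the other tissues. Proteasome subunits had 0 of 82 by both tools and 20 at an unadjusted p under 0.05, with a median of -0.20. Genes of DNA replication and mitosis had 0 of 28 by both tools and 1 at an unadjusted p under 0.05. In the liver, 25 of them were lower than in the ovary, 0 lower than in the brain and 0 lower than in the pituitary gland. Core histones had 0 of 24 by both tools and 3 at an unadjusted p under 0.05. Among lists for other cell types, globins (18 genes), leukocyte markers (17) and endothelial markers (20) had 0 depleted genes by both tools and 0 lower than each tissue at an unadjusted p under 0.05. Germ cell and oocyte proteins had 0 of 47 by both tools with 2 at an unadjusted p under 0.05, although 29 of them were lower than the ovary. The summed level of this list was nevertheless 21072 to 24324 CPM in the liver libraries, against 4340 to 5230 CPM in the ovary. Of its genes, 2 were higher in the liver than in each other tissue. The list includes zona pellucida proteins, and the paper names an eggshell protein among the highly expressed liver genes. The part of such genes in the sum was not tested. Liver plasma proteins had 0 of 58 by both tools, 2 at an unadjusted p under 0.05 and 44 higher in the liver. The Hedgehog list had 0 of 20 by edgeR, 1 by DESeq2 and 3 at an unadjusted p under 0.05, and that of insulin-like growth factor binding proteins 0 of 10, 0 and 1.

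**Figure D3:**
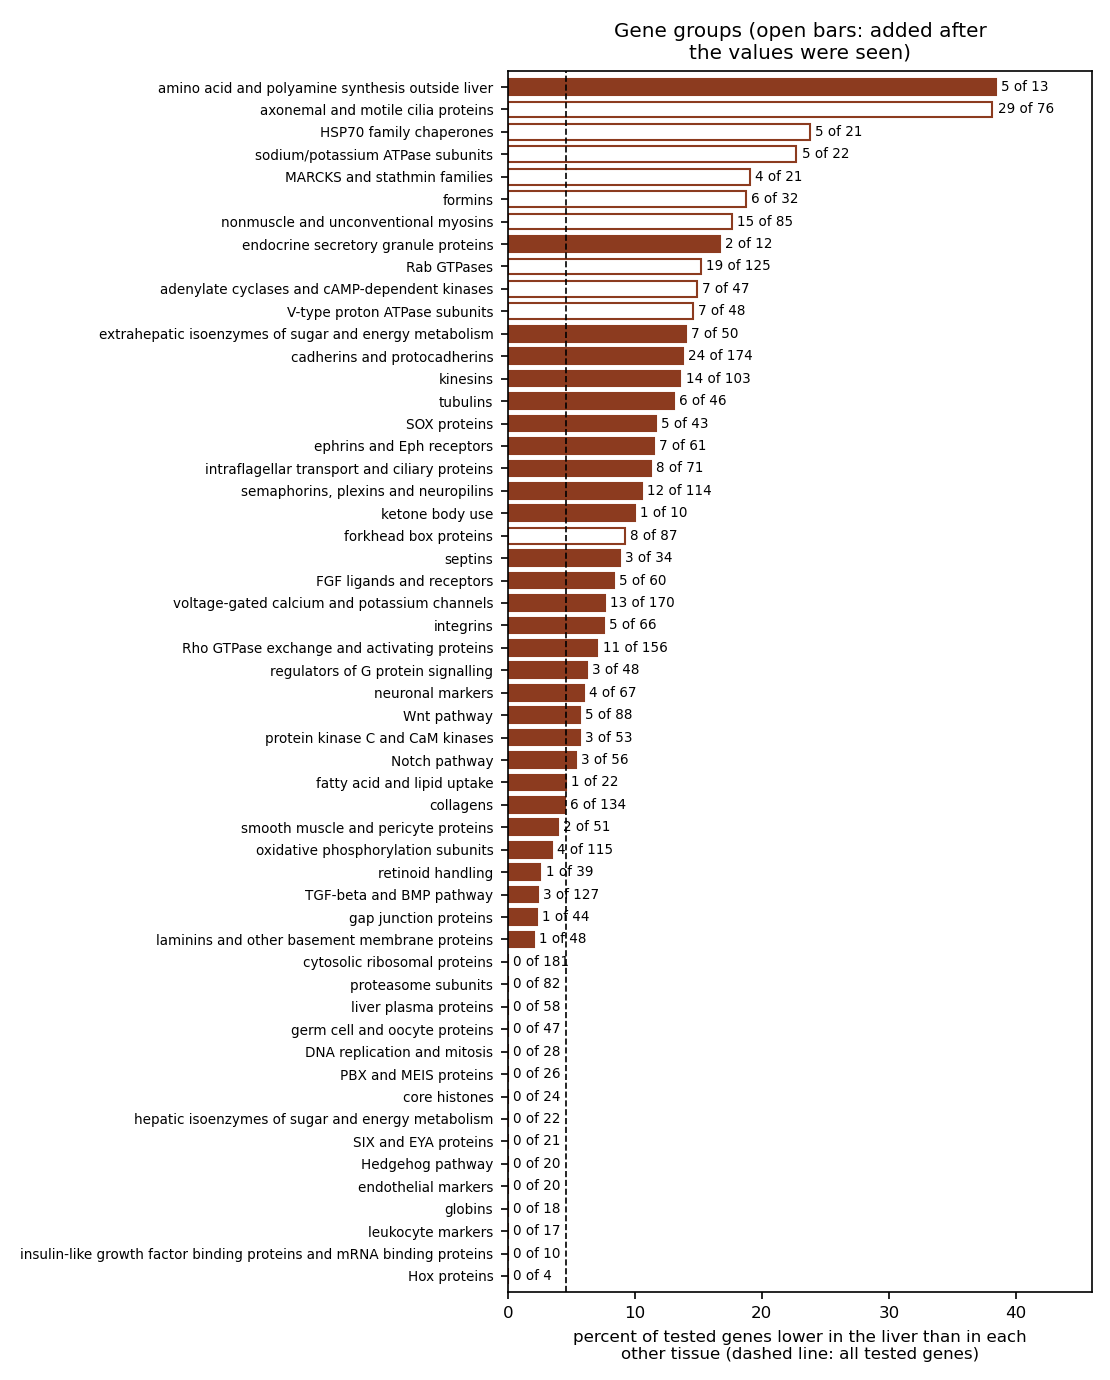
Percent of the tested genes of each list that were depleted in the liver (bars, with the counts beside them), open bars being lists added after the values had been seen, and the dashed line the share among all tested genes, 4.61%. Filled bars include lists whose name patterns were corrected after the files had been read. The list of amino acid and polyamine synthesis outside liver (5 of 13) and that of the axoneme and motile cilia (29 of 76) have the highest shares. No depleted gene is found in 15 lists.

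The salmon genome is rich in duplicated genes. Of the 1609 depleted genes with an informative product name, 1190 shared it with another tested gene. Names were compared without "-like" and without regard to case, and a shared name does not show that genes are duplicates. The same share was not computed for all tested genes, so the count does not mark the depleted genes as different. Among the 4306 names held by exactly 2 tested genes, both were depleted for 38 and 1 was depleted for 265. The other gene of those 265 was lower than 2 tissues in 103 cases, lower than 1 in 74 and lower than none in 88, and 5 were higher in the liver than in each other tissue. The pairs described here are those with the most negative difference whose other gene was called against no tissue and had at least 10 CPM in the liver.

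For ADP/ATP translocase 2-like, the carrier that exchanges nucleotides across the inner mitochondrial membrane, LOC106603043 (chromosome 4, 34731597 to 34756008) had 0 counts in the liver, against 1.36, 1.04, 1.21 and 0.244 CPM in the brain, 1.18, 0.454, 1.34 and 0.735 in the pituitary gland and 0.716, 0.784, 0.505 and 0.491 in the ovary. Its namesake LOC106563614 (chromosome 11, 78828081 to 78830499) had 495, 634, 569 and 500.0 CPM in the liver, against 657, 641, 479 and 449 in the brain, 569.7, 522, 399.5 and 441 in the pituitary gland and 255, 279, 246 and 267 in the ovary. The first was thus scarce in every tissue and at least 9.46-fold lower in the liver than in the ovary, while the second overlapped between liver and brain. For dnaJ homolog subfamily C member 5-like, a chaperone of synaptic and secretory vesicles, LOC106567344 (chromosome 13, 40803293 to 40807769) had 0.0919, 0.0863, 0 and 0.0836 CPM in the liver, against 38.7, 52.1, 20.7 and 27.9 in the brain, 6.3, 8.33, 7.63 and 7.13 in the pituitary gland and 7.51, 7.25, 7.23 and 8.18 in the ovary. The liver level was lower than that of the pituitary gland by 111-fold (95% counting interval 37.9 to 539.6), on 3 liver counts. Its namesake LOC106571443 (chromosome 15, 35683922 to 35702120) had 19.3, 20.8, 20.1 and 26.2 CPM in the liver, against 39.3, 37.8, 22.4 and 22.7 in the brain, 15.2, 17.1, 15.5 and 18.1 in the pituitary gland and 61.6, 62.2, 43.1 and 62.4 in the ovary, and there the liver lay above the pituitary gland.

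For transmembrane emp24 domain-containing protein 4-like, of a family that moves cargo between endoplasmic reticulum and Golgi, LOC106572840 (chromosome 15, 96354751 to 96357300) had 0, 0.0863, 0.181 and 0.251 CPM in the liver, against 9.52, 10.2, 9.93 and 8.01 in the brain, 9.77, 12.2, 8.73 and 8.67 in the pituitary gland and 15.1, 13.9, 14.4 and 13.7 in the ovary. This made a log2 fold change of -6.12 (SE 0.34, FDR 3.1e-10) against the brain. Its namesake LOC106566412 (chromosome 13, 6864456 to 6868364) had 23.2, 22.3, 27.9 and 23.5 CPM in the liver, against 66.3, 69.2, 52.1 and 60.3 in the brain, 65.1, 57.1, 51.3 and 51.1 in the pituitary gland and 18.5, 19.8, 17.6 and 19.3 in the ovary, so the liver was between the ovary and the other 2 tissues. For protein 4.1 and protein 4.1-like, which ties membrane proteins to spectrin, LOC106589039 averaged 0.0442 CPM in the liver, against 13.2 in the brain, 9.39 in the pituitary gland and 5.29 in the ovary, lower than the ovary by 119-fold (95% counting interval 32.7 to 981) on 2 liver counts, and LOC100380760 averaged 46.8 CPM in the liver, against 69.9 in the brain, 80.5 in the pituitary gland and 37.6 in the ovary. For epsin-3-like, an adaptor of endocytosis, LOC106592558 had 0 counts in the liver and was at least 8.63-fold lower than in the pituitary gland, a call that was lost without liver replicate 4, with a replicate block and in separate fits for each pair of tissues, and LOC106602025 averaged 13.5 CPM in the liver, against 22.6 in the brain, 9.44 in the pituitary gland and 11.6 in the ovary. In the remaining pair, GADD45 gamma-like, the depleted gene LOC106563370 stayed under 1 CPM in every library, and its call was lost when any of 14 of the 16 libraries was left out, among them each liver library, and with a replicate block.

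**Figure D4:**
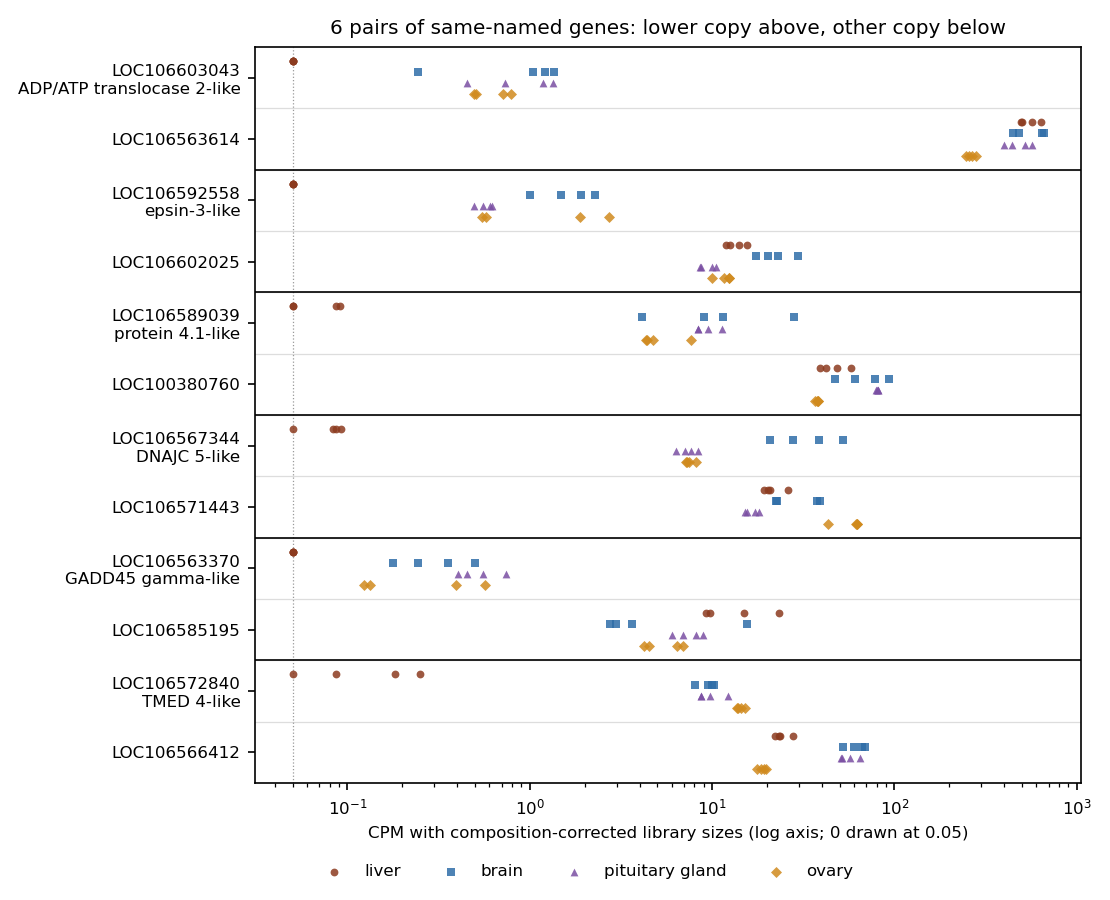
CPM (log axis, values of 0 drawn at 0.05) in each of the 16 libraries for 6 pairs of genes with the same product name, the depleted gene above and the other gene below, with the liver drawn uppermost in each row. Liver points of the depleted genes lie left of all others, as their choice required, at 0 to 0.251 CPM. Those of the other genes lie at 9.23 CPM or more, among or right of the points of the other tissues.

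Depleted genes were spread over all 29 chromosomes, from 3.42% to 6.36% of the tested genes of a chromosome. In the order of tested genes along the chromosomes, the next gene was depleted too for 140 of the 1709 (8.19%), where this held for 4.62% of all tested genes, and 9 of those neighbouring pairs had the same product name, such as myosin-Va-like and formin-2-like genes. Protein-coding genes made up 1655 of the depleted genes, long non-coding RNAs 30 and pseudogenes 21, which was 4.81%, 1.70% and 2.73% of the tested genes of these types. Uncharacterized products were 4.62% of the depleted genes and 8.82% of all tested genes. The median exon length was 3421 bases for depleted and 2739 bases for all tested protein-coding genes; the part of length in the calls was not tested.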

How the data were processed

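Tissue RNA was sequenced as stranded poly(A) libraries on an Illumina NovaSeq instrument. The authors aligned the reads with TopHat2 to the ICSASG_v2 assembly, counted reads per gene with HTSeq and deposited the raw counts of 16 libraries in 1 table, with no normalization. A table of normalized, centred log2 values that they also deposited was not used here. The strand setting of the counting is not given in the sources used here. Groups were taken from the labels, and gene names and coordinates from the RefSeq annotation of ICSASG_v2.

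Genes were filtered with filterByExpr, library sizes corrected by TMM, and all 16 libraries fitted together by tissue with edgeR 4.0.16 (quasi-likelihood test, R 4.3.3). Benjamini-Hochberg adjustment was made within each contrast over all 37043 tested genes, and calls needed an FDR no higher than 0.001 with a log2 fold change of -2 or below. CPM values use the corrected totals, and errors are SDs or standard errors of the fit. For genes with 0 liver counts, a floor of 3 counts over the 4 liver libraries was used for a lower bound of the fold, and for 1 to 3 counts a 95% exact interval; both cover counting error only. Deviations of same-numbered libraries correlated above 0.1 in all 4 pairs of liver and pituitary gland and in 10 of the 24 pairs over all tissues. The own number correlated best in 21 of 24 comparisons, and the exceptions all involved the brain. The labels do not state that equal replicate numbers mean the same fish, so p-values measure the spread between these libraries.

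The rule for named genes took the 10 with the most negative smallest difference, the 10 most abundant in their lowest other tissue, up to 3 per list, 8 transcription factors and 6 same-name pairs, in all cases with the liver libraries below all others. Of the 129 genes it named, mainly those whose calls held are described, and genes completing a list or pathway were added after their values were seen. Members and lists were chosen with earlier results of these data known. Some lists had their name patterns corrected after the files had been read. These were amino acid and polyamine synthesis outside liver, extrahepatic and hepatic isoenzymes, and neuronal and leukocyte markers. The Hedgehog list and that of semaphorins, plexins and neuropilins were corrected in the same way. Alternatives were other size factors (including those of DESeq2 1.42.0), other filters, DESeq2's Wald test, separate fits for each pair of tissues, a replicate block, looser thresholds and leaving out each library; leaving out brain replicates 3 and 4 was added after seeing the data. Sequences were not used here.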

Additional observations from a re-analysis of the deposited data

Results flagged for a closer look

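In 8 of 128 groups of 4 libraries, over the genes given library by library, 1 library stood apart from the other 3 by Dixon's criterion, where chance gives about 1 in 20. Liver replicate 3 had 0.181 CPM of dnah9, the others 0.0836 to 0.0919. The dnaJ homolog gene LOC106567344 was at 0 in liver replicate 3 and at 0.0836 to 0.0919 CPM in the others, and KIF2A LOC106568303 at 0 in liver replicate 4 and at 0.0863 to 0.0919 CPM in the others; these are steps of 1 count. In the ovary, LOC106568303 had 2.88 CPM in replicate 2 (others 2.26 to 2.29), LOC106577739 had 167 CPM in replicate 2 (others 133 to 138), LOC106571443 had 43.1 CPM in replicate 3 (others 61.6 to 62.4) and the ephrin receptor gene LOC106600145 had 5.02 CPM in replicate 3 (others 13.6 to 14.7). Chromogranin A, chga, had 291 CPM in pituitary gland replicate 3 (others 328 to 335).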

How the results depend on the processing

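The count of genes lower in the liver than in each other tissue was 1709, and stayed between 1286 and 1758 with DESeq2 or upper-quartile size factors, with no or a CPM filter, with DESeq2's Wald test (1749) and with separate fits for each pair of tissues (1286). After removing counts under 0.3% of the highest tissue sum it was 2410, against 1814 genes higher in the liver than in each other tissue, so that lower genes outnumbered higher ones, as with plain totals (4438 against 1268) and unlike the main 1709 against 2149. Plain library totals gave 4438 genes, and 13507 against the mean of the other tissues, 14175 against the brain, 9909 against the pituitary gland and 15552 against the ovary. An FDR of 0.05 with a log2 fold change of -1 gave 4157, 12611, 12727, 10826 and 13728 in the same order. Treating the 12 other libraries as 1 group gave 1471 genes against the mean. Leaving out 1 library gave 1505 to 1793 genes lower than each tissue, 5296 to 6330 against the mean, 7370 to 8439 against the brain, 5811 to 6686 against the pituitary gland and 7767 to 8526 against the ovary. No depleted gene described changed the sign of its difference in a setting that tested it, which the choice of genes with large differences favoured. Of the 129 genes named by the rule, 14 were not tested in the separate fits. Some named genes not described were called in few settings, such as microtubule-associated protein 2-like LOC106574851 in 11 of 27. Of the 1709 genes, 1099 were called in all 27 settings.

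Deviations of same-numbered libraries correlated above 0.1 in all 4 pairs of liver and pituitary gland, in 10 of the 24 pairs over all 6 combinations of tissues (range -0.00244 to 0.158), and the own number correlated best in 21 of 24 comparisons of a library with another tissue. With a replicate block 6200 genes were lower than the pituitary gland (6412 without) and 1614 lower than each tissue. Of the genes described, LOC106587214 lost its call with upper-quartile factors, LOC100136483 when counts under 0.3% were removed, LOC106605789, LOC106560331, LOC106603043, LOC106607203, LOC106592558 and LOC106563370 in separate fits, enog and LOC106563370 with DESeq2 or upper-quartile factors, LOC106563370 with the CPM filter, and enog, LOC106592558 and LOC106563370 with the replicate block.

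Depth limits the lowest genes: 73 members had no count and 277 had 1 to 3 counts in the liver, so their folds are bounds or wide intervals.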
